A study of Mus musculus with 6 samples.

Results

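Interferon-induced genes are the genes that a cell switches on after it has received an interferon signal. The set described here holds 34 genes of the main olfactory epithelium (MOE), chosen by name from the classic antiviral programme. The choice was made with earlier results of these data known. The genes were found by gene symbol in a deposited table of 31319 genes with raw read counts for 6 libraries. All 34 were in the table and all 34 were among the 18444 genes with enough reads to test. The libraries came from MOE, the nasal lining with the odour-sensing neurons, of male C57BL/6 mice at 5 months of age. Of these, 3 were labelled miR-200b/a KD (knockdown of the microRNAs miR-200b and miR-200a, here KD-1 to KD-3) and 3 were labelled NC (the controls, NC-1 to NC-3). The sources used here do not give how the knockdown was made, in which cells it acts or what the NC mice received. The labels speak of triplicates and do not say that each library is a separate mouse, so a p-value reflects the spread among these libraries, which may be technical. Values of a group are listed in the order of its replicate numbers.

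Interferons are secreted proteins that bind receptors on nearly every cell type. Type I and type III interferons act through JAK kinases to form a complex that includes STAT2 and IRF9 and binds the interferon-stimulated response element (ISRE) in gene promoters, while interferon gamma acts mainly through the gamma-activated sequence (GAS). The induced proteins detect viral RNA, degrade it, block its translation or trap virus particles, and leukocytes as well as the surface cells of the airway express them.

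The ISRE is the sequence feature that many members have in common, and 4 promoter stretches are shown because these genes return in the results below. Promoter sequences came from RefSeq (GRCm38.p6), from 250 bases before to 50 after each transcription start, and were matched for 25 of the 34 genes, with 31 promoters. Each stretch is printed 5′ to 3′ on the strand of its gene, with capitals on every match to the core repeat of the ISRE, 2 copies of GAAA with any 2 bases between them, read on either strand.
Isg15, chr4:156200835-156200956, minus strand: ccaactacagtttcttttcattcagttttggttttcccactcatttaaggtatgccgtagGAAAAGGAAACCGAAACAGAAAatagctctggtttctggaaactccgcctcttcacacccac
Gbp2, chr3:142620544-142620621, plus strand: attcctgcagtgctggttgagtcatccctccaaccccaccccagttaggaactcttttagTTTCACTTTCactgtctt
Ifit1, chr19:34640725-34640853, plus strand: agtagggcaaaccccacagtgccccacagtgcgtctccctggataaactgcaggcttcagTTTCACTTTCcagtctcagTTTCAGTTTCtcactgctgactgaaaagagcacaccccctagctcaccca
Ifit3, chr19:34583313-34583456, plus strand: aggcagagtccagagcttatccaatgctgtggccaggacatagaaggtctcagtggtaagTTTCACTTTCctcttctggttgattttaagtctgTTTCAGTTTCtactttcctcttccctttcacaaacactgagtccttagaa
Isg15 held 3 overlapping matches that began between bases -78 and -66 before its start. Gbp2 held 1, at -59 from its RefSeq start. The start of the annotated gene span given below (142620602) lies just before that match. Ifit1 held 2, the first at -104, and Ifit3 held 2, the first at -156. A match was found for 15 of the 25 genes (60%), against 3.99% of the 27025 genes with a promoter in the same table, and 15 of the 31 promoters of the set (48.4%) held one against 3.44% of all 32851 promoters. The GAS core TTCNNNGAA, read on either strand, was found for 7 of the 25 genes (28.0%) against 9.55% of all genes. These matches describe the letters in a window of 300 bases and are not measured binding sites.

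The microRNAs named in the labels are shown for their seeds, bases 2 to 8 in capitals, which pair with target sites (RefSeq, GRCm38.p6).
mmu-miR-200a-3p: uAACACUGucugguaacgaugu
mmu-miR-200b-3p: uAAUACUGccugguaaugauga
A 7-base match to either seed (CAGTGTT or CAGTATT) was present in the longest annotated 3′ UTR of 5 of the 34 genes (14.7%), against 29.0% of 15786 tested genes with a 3′ UTR. The 5 were Isg15, Stat2, Rsad2 and Mx1 for miR-200a and Ifit2 for miR-200b. The median 3′ UTR was 808.5 bases in the set and 1175 bases over the tested genes, and longer UTRs hold more matches. As a check of the labels, Mir200a had 3 to 54 counts in KD and 84 to 200 in NC. Mir200b had 0 to 28 and 47 to 76, so that neither overlapped between groups. Of the 18444 tested genes, 3431 had all KD values below all NC values. For both loci the lowest count was in KD-2 and the highest in NC-1. By the edgeR test described below, their adjusted p-values were 0.309 and 0.288. Poly(A) reads at these loci are no measure of the mature microRNAs.

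Total counts per library ran from 15704791 to 17618540, and levels are given as counts per 1000000 reads after TMM scaling (CPM). A pair of libraries stood apart from the rest of their groups. Omp, the marker gene of mature olfactory neurons, was at 11.4 CPM in KD-2 against 1419 to 4280 CPM in the other 5. NC-1 had the least leukocyte RNA, with 23.1 CPM of Ptprc, which encodes the leukocyte antigen CD45, against 83.6 to 207 CPM elsewhere. Results below are therefore also given without NC-1, or without both. Because the tissue was sequenced in bulk, fewer cells of a type and less RNA per cell cannot be told apart.

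In all 34 genes the fitted level was higher in KD than in NC, but none passed the test. The median log2 fold change of KD over NC was 1.01, against 0.0072 over all tested genes, and it ran from 0.04 for Ifit2 to 2.08 for Gbp2. Of all tested genes 50.6% had a fold change above 0. By the quasi-likelihood test of edgeR, adjusted by Benjamini-Hochberg over the 18444 genes, 0 members were called, as were 0% of all genes, and the members' adjusted p-values lay between 0.276 and 0.944. At an unadjusted p under 0.05, 4 members were higher (Irf9, Ifit1, Eif2ak2 and Parp14, 11.8% of the set) against 8.7% of the tested genes. DESeq2 called 0 members (1.89% of all genes) and gave 6 an unadjusted p under 0.05, against 10.2% of genes. In the authors' deposited table all 34 log2 fold changes were above 0, and 6 had an unadjusted p under 0.05. There 6.3% of 31241 genes were higher at that level, a share that includes genes with too few reads to be tested here. All 3 KD libraries lay above all 3 NC libraries for 22 members, where 15.3% of the tested genes did so. Because the members were chosen with earlier results of these data known, these shares describe the set and do not test it.

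**Figure D1:**
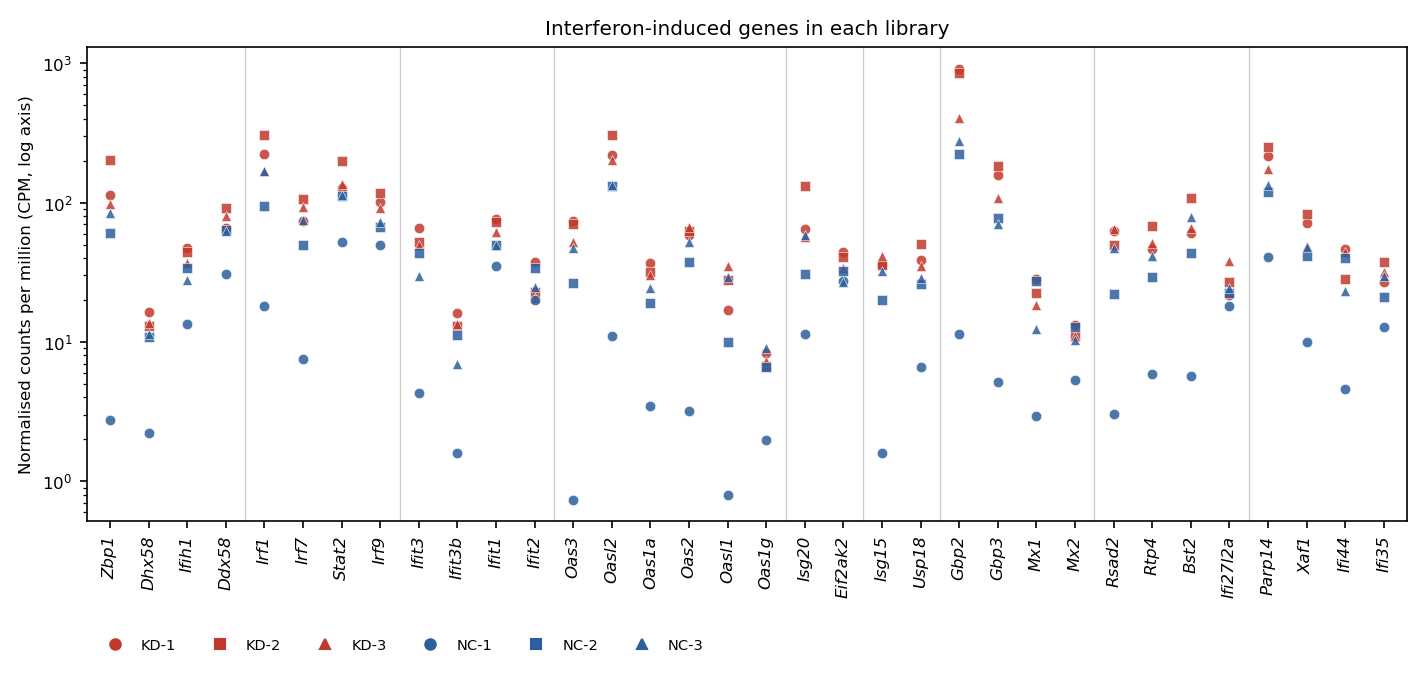
Level of each of the 34 genes in each library, in normalised CPM on a log axis, with KD in red, NC in blue and 1 symbol per replicate number; grey lines divide role groups. NC-1 (blue circles) is the lowest of the 6 libraries for every gene except Eif2ak2, at 27.5 CPM against 26.7 in NC-3.

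Among the sensors, which recognise viral nucleic acid in the cytoplasm, all 4 genes had their 3 KD values above their 3 NC values. Zbp1, a sensor of Z-form nucleic acid, was at 113, 203 and 96.9 CPM in KD against 2.78, 60.6 and 84.8 CPM in NC. Its NC-1 value lay far below every other library, and its log2 fold change was 1.48 (SE 1.03, n = 3 per group, edgeR adjusted p = 0.41). Ifih1, which encodes the long double-stranded RNA sensor MDA5, was measured at 46.9, 44.0 and 36.8 CPM in KD and 13.4, 34.1 and 28.0 CPM in NC, and its log2 fold change was 0.76 (SE 0.34). Ddx58, which encodes RIG-I, had 65.6, 90.7 and 79.5 CPM against 30.9, 63.1 and 62.8 CPM. The lowest KD value of Ddx58 was within 3 CPM of the highest NC value, and the log2 fold change was 0.59 (SE 0.30). Dhx58, the helicase LGP2 that modulates both, had a log2 fold change of 0.82 (SE 0.57).

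The transcription factors of the set include both DNA-binding partners of the type I response and 2 factors that are themselves induced. Irf9 (ENSMUSG00000002325, chromosome 14, 55603571 to 55610030, GRCm38), the DNA-binding subunit of the complex that binds the ISRE, had the smallest p of all 34 genes. It was measured at 101, 117 and 91.6 CPM in KD and at 49.96, 66.4 and 72.8 CPM in NC. The groups did not overlap, and the log2 fold change was 0.71 (SE 0.19, unadjusted p = 0.009, edgeR adjusted p = 0.276). Exons of Irf9 overlap those of Rnf31 on the same strand, so part of its reads could belong to that gene. Stat2, another subunit of this complex, had 128, 199 and 135 CPM in KD against 52.2, 112 and 114 CPM in NC, with a log2 fold change of 0.73 (SE 0.35). Irf1, a factor induced by interferon gamma and other cytokines, had 225, 303 and 167 CPM in KD and 18.2, 95.1 and 168 CPM in NC. Here NC-3 was level with KD-3, so the groups overlapped, and the log2 fold change was 1.30 (SE 0.73). Irf7, which drives transcription of the type I interferon genes, had a log2 fold change of 1.04 (SE 0.73), also with overlapping groups.

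The Ifit family encodes RNA-binding proteins that block translation of viral messages. The 4 Ifit genes of the set lie in the same stretch of chromosome 19 (34550694 to 34650009, GRCm38). Ifit1 (ENSMUSG00000034459) was at 75.8, 72.6 and 61.9 CPM in KD and 35.0, 49.5 and 49.9 CPM in NC. All KD values lay above all NC values, by a log2 fold change of 0.65 (SE 0.19, unadjusted p = 0.012, edgeR adjusted p = 0.276). Ifit3b had 16.2, 13.02 and 13.6 CPM against 1.60, 11.1 and 7.01 CPM, a log2 fold change of 1.11 (SE 0.63). Ifit3 gave a similar value, 1.12 (SE 0.72), but the coding sequences of the pair are 99.1% identical, so the split of reads between them is uncertain.

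Ifit2, the first gene of the cluster, was singled out after its values were seen because it had the smallest fold change of the set. It was at 37.5, 22.7 and 20.7 CPM in KD and 19.98, 33.9 and 24.9 CPM in NC, with a log2 fold change of 0.04 (SE 0.30). KD-1 and NC-2 were its highest libraries, and the groups overlapped. Neither of its RefSeq promoter windows held the ISRE core.

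The Oas family encodes the oligoadenylate synthetases, which activate an RNA-degrading nuclease upon sensing double-stranded RNA, and the related Oasl proteins. Oasl2 was at 219, 305 and 203 CPM in KD and 11.1, 131 and 133 CPM in NC. Its KD values were all above its NC values, with a log2 fold change of 1.40 (SE 0.82, edgeR adjusted p = 0.354). Oas3 had the same fold change, 1.40 (SE 1.10), from 73.5, 70.8 and 52.2 CPM in KD and 0.74, 26.4 and 47.3 CPM in NC. Its 12 counts in NC-1 were the lowest of any member in any library.

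The other 4 members of the family ran from 0.34 for Oas1g to 1.07 for Oas1a. Oas1a and Oas2 had groups that did not overlap, while Oasl1 and Oas1g overlapped. Oas1g was the single member whose highest library was an NC library, NC-3 at 9.03 CPM. Its coding sequence is 96.7% identical to that of Oas1a, so its counts are uncertain.

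Among the GTPases, the genes of the guanylate-binding proteins, Gbp2 and Gbp3, stood above Mx1 and Mx2. Guanylate-binding proteins attack the membranes around intracellular pathogens and are strongly induced by interferon gamma. Working Mx proteins trap viral nucleocapsids, but the annotation lists Mx2 as a polymorphic pseudogene. Whether these mice make a working Mx protein was not tested. Gbp2 (ENSMUSG00000028270, chromosome 3, 142620602 to 142638008) was measured at 915, 851 and 404 CPM in KD and at 11.4, 224 and 277 CPM in NC. The 2 highest libraries were KD-1 and KD-2, the groups did not overlap, and the log2 fold change of 2.08 (SE 1.03, edgeR adjusted p = 0.306) was the largest of the set. Gbp3 had 157, 182 and 108 CPM against 5.18, 77.5 and 70.5 CPM, a log2 fold change of 1.54 (SE 0.87). Mx1 and Mx2 had log2 fold changes of 0.70 (SE 0.71) and 0.32 (SE 0.34), and both overlapped between groups. Gbp2 alone made up 28.4%, 22.9% and 16.3% of the summed CPM of the 34 genes in KD, against 2.64%, 13.6% and 14.1% in NC.

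Isg15 is a ubiquitin-like protein that is attached to other proteins during the response, and Usp18 is the protease that removes it and also dampens signalling at the type I receptor. Usp18 was at 38.8, 50.5 and 35.2 CPM in KD and 6.66, 26.0 and 28.9 CPM in NC, with a log2 fold change of 1.01 (SE 0.52). Isg15 was at 35.9, 35.7 and 41.4 CPM against 1.60, 19.9 and 32.1 CPM, a log2 fold change of 1.07 (SE 0.87). For both genes every KD library was above every NC library.

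Eif2ak2 encodes PKR, the kinase that halts translation when it meets double-stranded RNA, and Isg20 encodes an exonuclease. Eif2ak2 (ENSMUSG00000024079, chromosome 17, 78852564 to 78882573) had the smallest gap between NC-1 and the other controls, and was at 44.5, 40.4 and 33.9 CPM in KD and 27.5, 32.2 and 26.7 CPM in NC. The groups did not overlap, and the log2 fold change was 0.46 (SE 0.16, unadjusted p = 0.026, edgeR adjusted p = 0.276). Isg20 had 64.2, 132 and 56.9 CPM against 11.3, 30.9 and 58.4 CPM, so that NC-3 lay above KD-3, and its log2 fold change was 1.33 (SE 0.63).

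Of the membrane-linked effectors, Bst2 encodes tetherin, which holds budding virus particles at the cell surface. It was at 60.1, 108 and 65.8 CPM in KD and 5.67, 43.7 and 78.5 CPM in NC, with NC-3 above 2 of the KD libraries and a log2 fold change of 0.87 (SE 0.82). Rtp4, of the family of receptor transporter proteins, had 46.2, 67.9 and 51.1 CPM against 5.92, 29.2 and 41.5 CPM, with no overlap and a log2 fold change of 1.11 (SE 0.64). Rsad2 (viperin), which makes a chain-terminating nucleotide, had a log2 fold change of 1.29 (SE 0.82), and Ifi27l2a one of 0.41 (SE 0.24).

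In the remaining group, Parp14 (ENSMUSG00000034422, chromosome 16, 35832874 to 35871544), an ADP-ribosyltransferase, was at 216, 251 and 174 CPM in KD and 41.0, 119 and 133 CPM in NC. Its groups did not overlap, and the log2 fold change was 1.13 (SE 0.44, unadjusted p = 0.042, edgeR adjusted p = 0.276). Xaf1 had 71.7, 83.1 and 49.1 CPM against 10.1, 41.3 and 47.8 CPM, a log2 fold change of 1.04 (SE 0.56), and KD-3 and NC-3 were close together. Ifi44 and Ifi35 overlapped between groups, at log2 fold changes of 0.82 (SE 0.69) and 0.60 (SE 0.32).

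Levels can be compared between genes only per length, as CPM per kilobase of annotated exon (FPKM, on the union of exons). By this measure Gbp2 was the most abundant member, at 288 ± 111 FPKM in KD and 67.8 ± 55.8 FPKM in NC (SD, n = 3 each). Bst2 followed in KD at 86.3 FPKM and Ifi27l2a at 62.4 FPKM.

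Within the controls, NC-1 stood apart from NC-2 and NC-3. It was the lowest of the 6 libraries for 33 of the 34 genes, where 32.5% of tested genes had NC-1 lowest. The mean of NC-2 and NC-3 was a median of 5.81 times NC-1 over the members, against 1.01 over all tested genes, and it ran from 1.07 for Eif2ak2 to 49.7 for Oas3. It was over 10 times for 10 members, where 2.45% of genes passed that mark, and under 2 times for 6 members, namely Eif2ak2, Ifi27l2a, Irf9, Ifit1, Ifit2 and Ifi35. The mean of the KD libraries was a median of 1.45 times the mean of NC-2 and NC-3, from 0.918 for Ifit2 to 2.89 for Gbp2. All 3 KD libraries lay above NC-2 and NC-3 for 22 members, against 17.8% of tested genes.

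**Figure D2:**
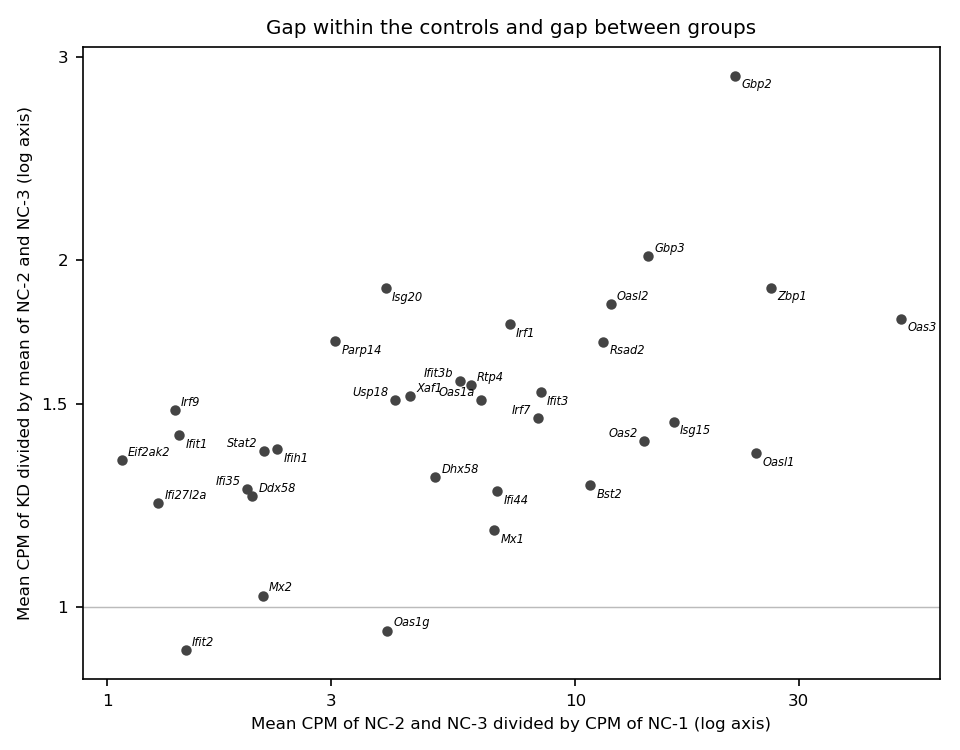
Each point is 1 of the 34 genes; the horizontal axis gives the mean CPM of NC-2 and NC-3 divided by the CPM of NC-1, the vertical axis the mean CPM of the 3 KD libraries divided by that of NC-2 and NC-3, both on log axes. The axes share the mean of NC-2 and NC-3; Oas3 lies farthest right at 49.7, Gbp2 highest at 2.89, and Ifit2 and Oas1g lie under 1.

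Without NC-1 the median log2 fold change of the set was 0.54, and 32 of 34 values were above 0, against 51.4% of tested genes. The exceptions were Ifit2 at -0.12 and Oas1g at -0.066. The standard error was smaller for 31 members, with Gbp2 at 1.53 (SE 0.42) and Gbp3 at 1.01 (SE 0.26), and larger for Ifit2, Ifi27l2a and Eif2ak2, for example 0.187 against 0.157 for Eif2ak2. At an unadjusted p under 0.05, 11 members were higher (Ifit1, Ifit3, Oas1a, Oas3, Oasl2, Irf9, Usp18, Rtp4, Gbp2, Gbp3 and Parp14) against 5.78% of genes, and 0 passed after adjustment (0% of genes, smallest adjusted p = 0.475). With both NC-1 and KD-2 left out, the median was 0.47, all 34 values were above 0 (52% of genes) and 12 members had an unadjusted p under 0.05 against 5.59% of genes. Again 0 members were called (0.016% of genes), with a smallest adjusted p of 0.251.

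**Figure D3:**
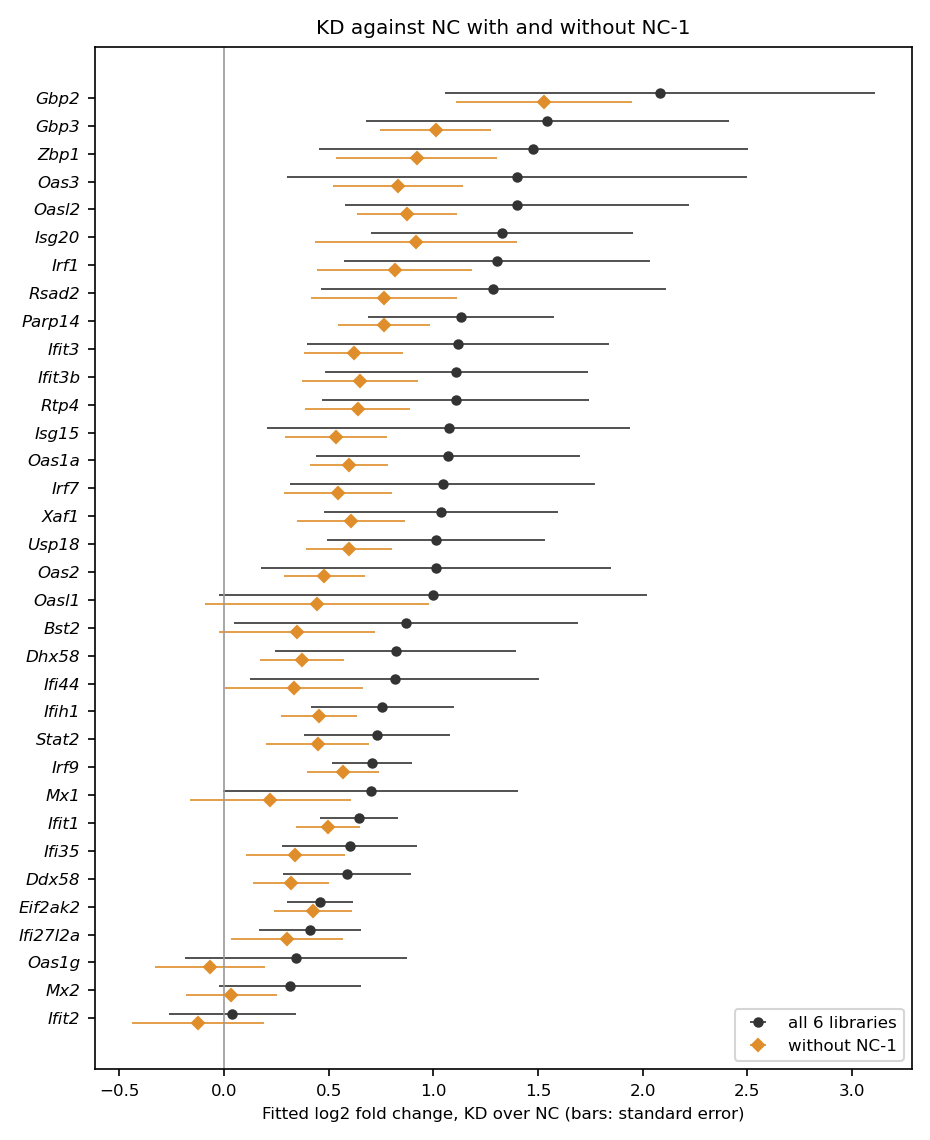
Fitted log2 fold change of KD over NC for each of the 34 genes with its standard error, from all 6 libraries (black circles) and without NC-1 (orange diamonds). Without NC-1, 33 of the 34 values are closer to 0 (all but Ifit2) and 31 bars are shorter (all but Ifit2, Ifi27l2a and Eif2ak2), and Gbp2 is the largest in both, at 2.08 and 1.53.

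The share of reads taken by the whole set was lowest in NC-1, as were the leukocyte markers. The 34 genes held 0.314%, 0.309% and 0.260% of the counts in KD against 0.0434%, 0.183% and 0.206% in NC. Their summed level was 3227, 3718 and 2481 CPM in KD and 433, 1649 and 1965 CPM in NC. Ptprc was at 207, 201 and 157 CPM in KD and 23.1, 83.6 and 114 CPM in NC, so that the same library was lowest. The summed level divided by Ptprc was 15.6, 18.5 and 15.8 in KD and 18.8, 19.7 and 17.2 in NC. On this scale the set was not higher in KD, and NC-1 lay within the range of the other controls. The place of NC-1 depends on the divisor. Divided by the summed pan-leukocyte markers, the set was lowest in NC-1, at 1.62 against 1.84 to 2.78 in the rest.

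**Figure D4:**
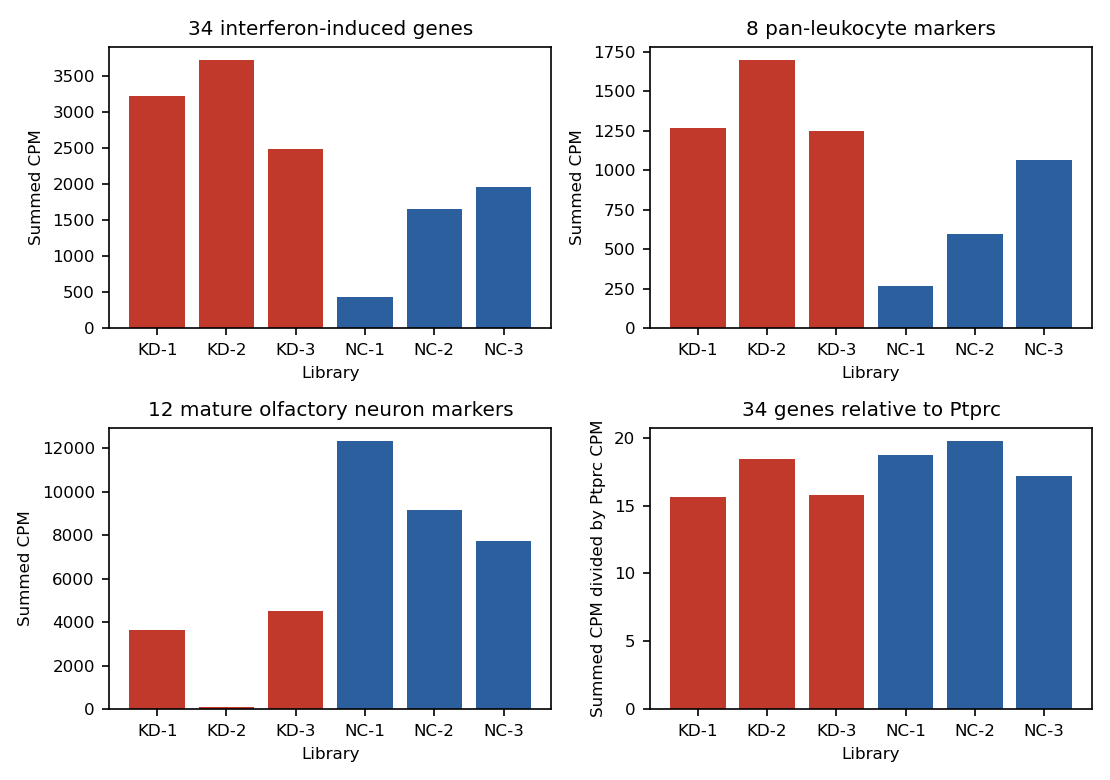
Bars give, for each library (KD red, NC blue), the summed CPM of the 34 genes, of the 8 pan-leukocyte markers and of the 12 mature olfactory neuron markers, and the summed CPM of the 34 genes divided by Ptprc CPM. NC-1 is lowest for the first 2 sums (433 and 267 CPM), KD-2 is lowest for the neuron markers (73.0 CPM), and the ratio to Ptprc lies between 15.6 and 19.7 in all 6 libraries.

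Markers of immune cells that could carry these transcripts were mostly higher in KD as well. All 8 pan-leukocyte markers had fold changes above 0, with summed levels of 1247 to 1695 CPM in KD and 267 to 1065 CPM in NC, and their median log2 fold change was 1.10. T and natural killer cell markers were above 0 for 10 of 10 tested (sums of 77.8 to 136 CPM against 11.1 to 71.1 CPM), with Cd3e, a T cell receptor subunit, at 0.86 (SE 0.67). The macrophage list was above 0 for 9 of 10 (1009 to 1468 CPM against 142 to 841 CPM), including Adgre1, which encodes F4/80, at 0.81 (SE 0.25). Neutrophil markers were above 0 for 8 of 8, with a median of 1.85 and sums of 13426 to 34142 CPM against 1432 to 9131 CPM, and the mean of NC-2 and NC-3 was a median of 36.6 times NC-1. Most of these sums was Ltf, the lactoferrin gene, which gland cells also express (12310 to 30317 CPM against 1410 to 7377 CPM), and which was singled out after its values were seen. B and plasma cell markers were above 0 for 9 of 9 (3948 to 6934 CPM against 1066 to 5580 CPM), with Jchain of secreted antibodies at 0.57 (SE 0.64). For plasmacytoid dendritic cells, a rich source of type I interferon, 6 of 8 markers were above 0 (291 to 382 CPM against 168 to 278 CPM), and Siglech, their surface lectin, was at 1.05 to 10.3 CPM. No marker of these lists that was tested stood at 0 in all libraries of a group. Of the non-immune cells, endothelial markers were above 0 for 8 of 8, with Pecam1 at 1.17 (SE 0.35). Horizontal basal cell markers were above 0 for 7 of 8, with the basal keratin Krt5 at 1.26 (SE 0.42). Ciliated and secretory respiratory cell markers were above 0 for 5 of 7 tested. Their sums did not overlap (4254 to 4991 CPM against 1453 to 2704 CPM), and NC-1 was lowest. Fibroblast markers were above 0 for 6 of 7 (2284 to 4751 CPM against 2724 to 4619 CPM). Sustentacular cell markers were above 0 for 3 of 8 (6241 to 11168 CPM against 10789 to 12342 CPM). Mature neuron markers were below 0 for 12 of 12, with Omp at -1.77 (SE 1.36). With the level of those neuron markers as a covariate, all 34 members stayed above 0 (51.9% of genes) with a median of 0.77, and 0 members had an unadjusted p under 0.05 (3.32% of genes were higher at that level).

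With the mean level of the 8 pan-leukocyte markers in each library as a covariate, an alternative added after the data were seen, the median log2 fold change of the set was -0.15 and 24 of 34 members were below 0, against 52.4% of tested genes. Bst2 was the single member with an unadjusted p under 0.05 in that fit, at -0.81 (adjusted p = 0.898), where 2.3% of genes were lower at that level. The 10 members above 0 included Gbp2, Irf9, Ifit1, Eif2ak2 and Parp14. Over 6 libraries the marker level and the group are partly aligned, and whether leukocyte RNA accounts for the members' levels was not tested.

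Upstream of these genes, the interferons themselves were hardly detected. Of 21 listed ligand genes, 7 were in the table and 1 had enough reads to test. That gene was Ifng, which encodes interferon gamma, at 1.23, 2.30 and 0.83 CPM in KD and 0.062, 0.46 and 0.73 CPM in NC, with a log2 fold change of 1.75 (SE 0.78, edgeR adjusted p = 0.285). All its KD values lay above its NC values, as for 15.3% of tested genes. Levels this low rest on few reads, and the lowest KD value, 0.83 CPM, was close to the highest NC value, 0.73 CPM. Ifnb1, the gene of interferon beta, had 0 to 1 counts in each library.

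All 6 receptor genes were tested and 0 were called, with 4 higher and 1 lower at an unadjusted p under 0.05, where 8.7% and 9.25% of the tested genes were higher and lower. The type I receptor chain Ifnar1 was at 89.3, 118 and 107 CPM in KD and 70.4, 73.6 and 77.2 CPM in NC, with a log2 fold change of 0.51 (SE 0.15), and Ifnar2 had one of 0.71 (SE 0.37). The interferon gamma receptor genes Ifngr1 and Ifngr2 were at 1.005 (SE 0.30) and 1.18 (SE 0.43). Il10rb, a chain shared by the type III receptor, was at 0.79 (SE 0.22). Ifnlr1, the chain specific to type III interferon and restricted mainly to epithelial cells, went the other way. It was at 19.7, 17.7 and 23.0 CPM in KD and 37.3, 34.7 and 28.0 CPM in NC. Every KD value was below every NC value, as for 3431 of the 18444 tested genes. The log2 fold change of Ifnlr1 was -0.73 (SE 0.18, unadjusted p = 0.006, edgeR adjusted p = 0.276).

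Of 14 signal transduction genes, 14 had fold changes above 0, with a median of 0.64 and 4 higher with an unadjusted p under 0.05 by edgeR, against 8.7% of genes. Jak2, a kinase of the interferon gamma receptor, was at 140, 130 and 125 CPM in KD against 61.4, 83.6 and 75.0 CPM in NC. Its log2 fold change was 0.85 (SE 0.16, edgeR adjusted p = 0.276), and DESeq2 called it at an adjusted p of 0.0048, as it did 1.89% of all genes. Irf2, Stat3 and Irf3 were at 0.48 (SE 0.13), 0.71 (SE 0.24) and 0.26 (SE 0.13). Irf3, which starts type I interferon transcription, lay between 49.8 and 51.6 CPM in all 3 NC libraries, NC-1 included.

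Among 14 genes that sense microbes upstream of interferon production, 12 were above 0, the median was 0.89 and 9 had an unadjusted p under 0.05, all higher, against 8.7% of genes. Tlr4, the receptor of bacterial lipopolysaccharide, was at 30.8, 31.0 and 25.6 CPM in KD and 11.3, 12.98 and 16.4 CPM in NC. Its log2 fold change was 1.10 (SE 0.19, edgeR adjusted p = 0.276, DESeq2 adjusted p = 0.0019). Trim25, the ubiquitin ligase that activates RIG-I, was at 1.02 (SE 0.25, DESeq2 adjusted p = 0.048), and the kinase Tbk1 at 0.55 (SE 0.16). Tlr4 and Trim25 were the 2 genes of this list that DESeq2 called, where it called 1.89% of all genes.

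A list of 66 other interferon-induced genes, of which 62 were tested, gave a median log2 fold change of 1.25, with 58 above 0 and 0 called by edgeR or DESeq2. At an unadjusted p under 0.05, 12 were higher and 0 lower, against 8.7% and 9.25% of all tested genes. All KD values lay above all NC values for 47 of the 62, against 15.3% of genes, and NC-1 was the lowest library for 58, against 32.5%. Gbp2b, Dtx3l and Tor3a had the smallest p, at log2 fold changes of 1.69 (SE 0.54), 1.11 (SE 0.40) and 0.82 (SE 0.30). Tap1, the peptide transporter of antigen presentation, was at 1.30 (SE 0.81), Ifitm3, which blocks virus entry, at 1.15 (SE 0.75), and the chemokine gene Cxcl10 at 1.35 (SE 1.30). The ISRE core was found in promoters of 24 of the 51 genes of this list with a RefSeq entry (47.1%).

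Neighbouring members of the response did not keep the same ratio in every library. For the Ifit cluster and for Rsad2 and its neighbour Cmpk2, a nucleotide kinase gene that is no member, this was noticed after their values were seen. There were 1.15, 1.39 and 1.26 counts of Ifit1 per count of Ifit3 in KD and 8.10, 1.15 and 1.69 in NC. NC-1 thus held relatively much Ifit1, since Ifit3 was at 4.32 CPM there against 29.6 to 66.0 CPM elsewhere. Rsad2 was at 62.6, 49.9 and 64.1 CPM in KD and 3.02, 22.2 and 47.1 CPM in NC, while Cmpk2 was at 40.9, 27.8 and 40.0 CPM and 40.6, 52.2 and 48.0 CPM. The ratio of their counts was 1.53, 1.80 and 1.60 in KD and 0.0745, 0.426 and 0.981 in NC, so that every KD value was above every NC value. The fold change of Cmpk2 was -0.37 (SE 0.20).

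**Figure D5:**
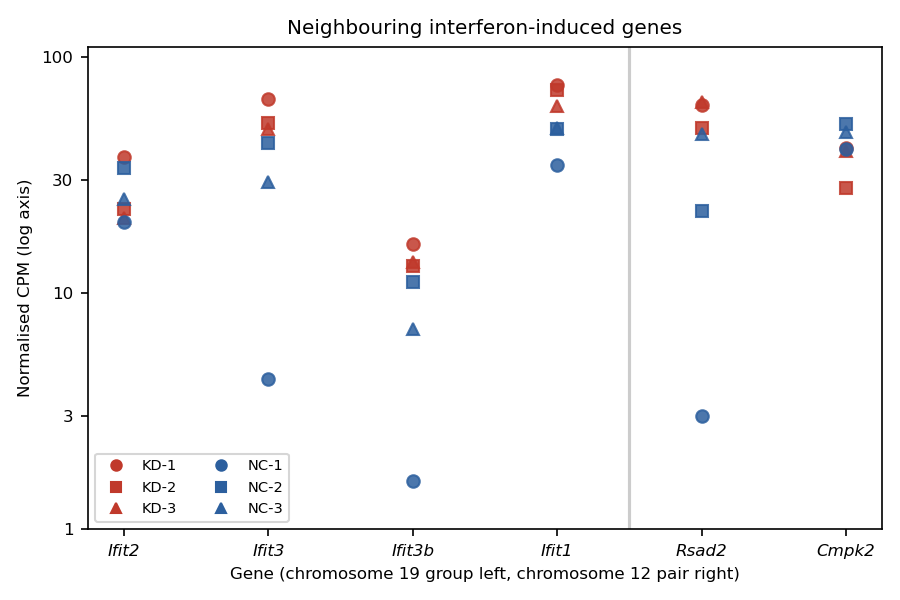
Normalised CPM (log axis) in each library of the Ifit genes of chromosome 19 and of Rsad2 with Cmpk2 on chromosome 12, with KD in red, NC in blue and 1 symbol per replicate number. NC-1 lies far below the other libraries for Ifit3, Ifit3b and Rsad2 (3.02 CPM) and within or near them for Ifit2, Ifit1 and Cmpk2 (40.6 CPM).

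Members with and without the ISRE core had close median fold changes. The 15 genes with a match had a median log2 fold change of 1.07 and the 10 matched genes without one a median of 1.02, and the mean of NC-2 and NC-3 was a median of 6.29 and 5.62 times NC-1. Groups that did not overlap were found for 13 of the 15 and 3 of the 10, against 15.3% of all tested genes. They were found for 22 of all 34 members, which include genes without a matched promoter. The difference is given as a description, and a link to the motif was not tested. Irf9 and Ifit2 had no match in either of their promoter windows, and Ifit1 had 2. Both windows of Irf9 (from 55603735 and 55604329) began after its annotated gene start (55603571), so the stretch before that start was not searched. Of the 5 genes with a seed match, Rsad2, Isg15, Stat2, Mx1 and Ifit2 had log2 fold changes of 1.29, 1.07, 0.73, 0.70 and 0.04.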

How the data were processed

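Poly(A) RNA was extracted with Trizol and made into libraries with a NEBNext Ultra kit, per the labels' protocols. Without saying which did what, the submitters' processing notes list the build GRCm38, the aligners HISAT2 2.1.0, Bowtie2 2.2.3 and TopHat2, the counter HTSeq 0.6.0, and DESeq and DESeq2. The sources used here give neither the annotation nor the strand setting, and reads of overlapping genes on either strand cannot be told apart. The deposited table gives raw counts per library, as well as a signal (the authors' mean of scaled counts, recomputed within 0.0142%), a log2 fold change and an unadjusted p-value by the authors, per the file headers. The columns headed control were matched to NC libraries by number. Symbols of 25 rows that had become numbers were restored by gene ID from GENCODE M21, which held 31251 of the IDs.

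KD was compared with NC, 3 libraries each, by edgeR 4.0.16 in R 4.3.3 (TMM, default filter on low counts, quasi-likelihood test, two-sided, no covariate). Adjustment was by Benjamini-Hochberg over 18444 genes, with a threshold of 0.05. The standard error is the log2 fold change divided by the root of F. DESeq2 1.42.0 and limma 3.58.1 (voom) were alternatives, and the scripts were tested on simulated data. The precision of each value is limited by 3 libraries per group and, for the lowest members, by counts such as the 12 of Oas3 in NC-1.

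The members, the 5 pathway lists and the 12 cell type marker lists were chosen with earlier results of these data known. Values in every library were given for up to 14 members with an unadjusted p under 0.05 or groups that do not overlap, taken by smallest p, for the 4 with the highest mean CPM and for the first of each role group by mean CPM. Of each pathway list the 3 genes with the smallest p and a fixed set were named. Oas3, Isg15, Ifit2, Ifit3, Oas1g, Rsad2, Cmpk2 and Ltf were given in more detail after their values were seen. 1 gene of the fixed set is not reported here.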

Additional observations from a re-analysis of the deposited data

How the results depend on the processing

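None of 13 alternative settings, nor 1 added after the data were seen, called a member. The smallest adjusted p of the members lay between 0.0829 (DESeq2) and 0.898 (pan-leukocyte covariate). The number of genes called in all was 0, except for 347 with DESeq2 and 3 when KD-2 and NC-1 were both left out. Members below 0 numbered 0 to 2 when 1 library was left out in turn, with Ifit2 from -0.28 (without KD-1) to 0.24 (without NC-2) and at -0.12 without NC-1, and Oas1g from -0.066 (without NC-1) to 0.80 (without NC-3). The median log2 fold change of the members then ran from 0.54 (without NC-1) to 1.37 (without NC-3), and it was 1.36 with limma-voom. Omp, 1 of the neuron markers, was at 0.15 when their level was the covariate. Leaving out KD-2 together with NC-1 put Jchain at -0.0013.

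The pan-leukocyte covariate put 24 members below 0, with a median of -0.15. The cause was not tested. In that fit the log2 fold changes were -0.14 for Ifit2, -0.20 for Ifit3, -0.52 for Isg15, -0.13 for Oas1a, -0.59 for Oas1g, -0.58 for Oas2, -0.71 for Oas3, -0.69 for Oasl1, -0.33 for Oasl2, -0.16 for Irf1 and -0.40 for Irf7. They were -0.81 for Bst2, -0.083 for Usp18, -0.11 for Rsad2, -0.46 for Mx1, -0.19 for Mx2, -0.23 for Ifi44, -0.013 for Ddx58, -0.22 for Dhx58, -0.21 for Rtp4, -0.76 for Zbp1, -0.27 for Gbp3, -0.12 for Xaf1 and -0.051 for Ifi35. Outside the set they were -0.071 for Ifnar2, -1.16 for Cxcl10, -0.41 for Ifitm3, -0.34 for Tap1, -0.42 for Cd3e and -0.62 for Jchain.

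With the replicate number as a block the median was 1.34, 6 members had an unadjusted p under 0.05 against 4 without the block (7.22% of genes with it), and 0 were called. Same-numbered libraries had correlations of their deviations from the group means of 0.287, 0.0915 and -0.249. KD-1 correlated best with NC-1, KD-2 with NC-3 and KD-3 with NC-1. Deviations within a group of 3 libraries are not independent, so these values cannot decide whether the numbers mark pairs. The spread within NC was wide, and whether it accounts for the lack of calls was not tested. With 3 libraries per group, a p above the threshold does not show that levels were equal.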

Other observations

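The summed level of the 34 genes without Gbp2 was 2312, 2867 and 2077 CPM in KD and 421, 1425 and 1688 CPM in NC, which still did not overlap. The summed level of the set divided by that of the 8 pan-leukocyte markers was 2.55, 2.19 and 1.99 in KD and 1.62, 2.78 and 1.84 in NC, which did overlap. These ratios were chosen after the values were seen.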
